A study of Mus musculus with 12 samples.

Results

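The IL-2 receptor and STAT5 genes comprised 7 genes: Il2ra and Il2rb, Stat5a and Stat5b, and Cish, Socs1 and Socs2. Their members were the open chromatin regions that overlap the gene body or the 20 kb on either side of it, chosen by position alone, and they numbered 103 of the 118680 regions of the series. Il2ra (ENSMUSG00000026770.4, chr2:11564419-11614818, plus strand, build mm9) had 25 regions and Il2rb (ENSMUSG00000068227.2, chr15:78310983-78325496, minus strand) had 12. Stat5a (ENSMUSG00000004043.8, chr11:100720665-100746483, plus strand) had 23 and Stat5b (ENSMUSG00000020919.5, chr11:100642045-100712038, minus strand) had 27. The Stat5 genes are neighbours that point away from each other, and 14 regions counted under both. Cish (ENSMUSG00000032578.6, chr9:107198357-107205115, plus strand) had 14 regions, Socs1 (ENSMUSG00000038037.4, chr16:10783901-10785629, minus strand) had 10 and Socs2 (ENSMUSG00000020027.11, chr10:94847996-94879814, minus strand) had 6. The window of Il2ra reached the start of Il15ra, that of Stat5a overlapped Stat3 and that of Cish overlapped Mapkapk3, so a region there is assigned by position and not by a measured target.

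IL-2 is the cytokine on which regulatory T cells (Treg) depend for survival and function. It binds a receptor whose alpha chain, encoded by Il2ra (CD25), gives high affinity and whose beta chain, encoded by Il2rb (CD122), signals through JAK kinases to the transcription factors STAT5A and STAT5B. STAT5 proteins bind DNA at a palindromic site, and among their targets are Il2ra itself and the feedback inhibitors CISH, SOCS1 and SOCS2, which damp cytokine receptor signalling. Ikaros, the zinc finger protein encoded by Ikzf1, recognises sites with a GGGAA core and is known as a regulator of the Il2 gene in T cells.

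Chromatin accessibility was measured by ATAC-seq, in which the transposase Tn5 cuts open DNA, in 12 libraries of 4 groups with 3 replicates each. Both genotypes carried Foxp3-YFP-Cre, a Cre driven from the Foxp3 gene and therefore active in Foxp3+ cells only. The Ikzf1-cko mice also carried a floxed Ikzf1 (Ikzf1-fl-Foxp3-YFP-Cre), and the WT mice did not. YFP+ Treg derived from spleen were profiled either ex vivo or after 4 hr on plate-bound anti-CD3 and anti-CD28 antibodies, with 100000 cells per library. The sorted cells of a genotype were divided between the 2 states, so an ex vivo and a stimulated library may come from the same sort. Which libraries do is not given in the sources used here, and the tests treated all 12 as independent. No cultured but unstimulated group was analysed here, so stimulation and culture cannot be told apart, and the ages, sexes and any pooling of the mice behind single libraries are not given in the sources used here.

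The libraries held 4808916 to 15355521 counted reads, and each of the 6 Ikzf1-cko libraries was deeper than each of the 6 WT libraries. The part of depth in the genotype comparisons was measured by thinning all libraries to 4808916 reads, and the thinned values are given beside the results they change. Stimulated WT libraries were the least alike, with a Spearman rho of 0.867 to 0.896 over the 69957 regions tested. Between replicates of the ex vivo groups it was 0.942 to 0.985. Replicate 2 of stimulated WT stood apart at the Stat5 genes. Regions lay over the start sites of Foxp3, Ctla4, Cd4 and Cd3e and held reads in every library. No region lay over the start sites of 4 B cell, 4 myeloid or 2 NK cell marker genes, or of the Treg marker Ikzf2. Levels are given as FPKM, the reads per kilobase of region scaled to the counted reads of the library. Of the CD8 T cell markers, Cd8a held 6.44 to 10.8 FPKM in WT and 1.67 to 7.1 in Ikzf1-cko libraries, and Cd8b1 11.0 to 14.7 against 8.78 to 10.4. The Foxp3 start held 6.38 to 7.26 FPKM in WT ex vivo, where Cd8a held 6.44 to 9.49, and 10.8 to 11.9 in Ikzf1-cko ex vivo. After stimulation the Foxp3 start held 13.9 to 15.3 FPKM in WT and 15.0 to 17.0 in Ikzf1-cko Treg. The CD8 markers moved with genotype, and the Foxp3 start did so ex vivo and rose with stimulation. The part of these markers in the results was not tested. Regions in the Ikzf1 gene body summed to 18.0 to 20.4 FPKM in WT and 17.0 to 19.8 in Ikzf1-cko Treg ex vivo, and since no region covers the last exon and the deleted part is not given in the sources used here, the accessibility does not check the genotype labels.

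The sequences of 10 member regions are shown first, because the results turn on them: 4 at the Stat5 genes passed both thresholds in a comparison, 3 at Il2ra, Socs1 and Socs2 are those at which the effect of genotype differed with stimulation, and 3 serve as examples in the first intron of Il2ra, at the Cish start and upstream of Cish. They were read from mm9 on the plus strand. For regions over 300 bases, the 300 bases with most matches to the STAT motif are printed. Capitals mark matches to TTCNNNGAA (STAT), to GGGAA (the Ikaros core, TTCCC on the other strand) and to TGANTCA (AP-1), searched on both strands. A match is a property of the letters and not a measured binding site.

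At Il2ra, OCR_60381 lies 16.5 kb upstream of the start, in exon 1 of the gene model Gm17490 (printed part chr2:11547512-11547811), and OCR_60391 lies in the first intron, 12.2 kb from the start (chr2:11576848-11577147).
OCR_60381: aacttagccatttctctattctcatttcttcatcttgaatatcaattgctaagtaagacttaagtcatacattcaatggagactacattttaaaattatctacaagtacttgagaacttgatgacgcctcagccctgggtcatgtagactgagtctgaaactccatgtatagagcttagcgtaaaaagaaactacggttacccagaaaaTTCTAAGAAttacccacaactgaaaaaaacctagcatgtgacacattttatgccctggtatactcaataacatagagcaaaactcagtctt
OCR_60391: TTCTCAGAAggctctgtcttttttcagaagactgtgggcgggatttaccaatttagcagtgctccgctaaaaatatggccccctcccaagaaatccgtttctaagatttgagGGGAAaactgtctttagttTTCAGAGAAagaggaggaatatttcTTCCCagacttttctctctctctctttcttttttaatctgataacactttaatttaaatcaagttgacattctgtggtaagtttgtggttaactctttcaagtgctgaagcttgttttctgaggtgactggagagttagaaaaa
The stretch of OCR_60381 holds 1 STAT match, and that of OCR_60391 holds 2 STAT matches and 2 Ikaros cores. Of regions within 10% of their length, 13.9% and 21.6% hold a STAT match.

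At the Stat5 genes, OCR_20432 (chr11:100680491-100680747), OCR_20435 (printed part chr11:100685309-100685608) and OCR_20443 (chr11:100704700-100704923) lie in the first intron of Stat5b, 31.3, 26.4 and 7.12 kb from its start. OCR_20450 (chr11:100720322-100720479) lies 0.186 kb upstream of the annotated Stat5a start.
OCR_20432: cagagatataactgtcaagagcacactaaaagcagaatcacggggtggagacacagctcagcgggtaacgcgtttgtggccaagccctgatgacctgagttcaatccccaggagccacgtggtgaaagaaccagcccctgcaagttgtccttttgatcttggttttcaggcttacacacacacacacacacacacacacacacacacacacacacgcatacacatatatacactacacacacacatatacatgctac
OCR_20435: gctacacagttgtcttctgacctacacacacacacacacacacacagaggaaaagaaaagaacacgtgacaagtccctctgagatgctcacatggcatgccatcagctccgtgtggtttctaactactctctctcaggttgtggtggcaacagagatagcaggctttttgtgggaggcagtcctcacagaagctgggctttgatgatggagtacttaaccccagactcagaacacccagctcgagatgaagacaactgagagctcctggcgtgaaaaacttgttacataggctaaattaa
OCR_20443: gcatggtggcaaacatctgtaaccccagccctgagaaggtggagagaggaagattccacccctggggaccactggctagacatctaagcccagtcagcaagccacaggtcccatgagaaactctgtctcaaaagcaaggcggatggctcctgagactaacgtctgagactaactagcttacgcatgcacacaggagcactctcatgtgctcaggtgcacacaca
OCR_20450: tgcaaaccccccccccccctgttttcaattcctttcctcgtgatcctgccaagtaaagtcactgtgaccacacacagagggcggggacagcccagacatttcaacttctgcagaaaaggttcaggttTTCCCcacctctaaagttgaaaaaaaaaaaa
The 3 intronic regions hold no match to any of the 3 motifs. OCR_20450 holds 1 Ikaros core and runs of single bases at both ends. OCR_20432 and OCR_20435 carry runs of the dinucleotide CA, and how such repeats affected the mapping of reads was not tested.

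At the feedback inhibitors, OCR_115652 covers the Cish start (printed part chr9:107198821-107199120), OCR_115647 lies 17.1 kb upstream of Cish in an intron of Mapkapk3 (chr9:107180924-107181223), OCR_44014 lies 12.8 kb downstream of the Socs1 start in intergenic DNA (chr16:10772279-10772578) and OCR_13913 covers the Socs2 start together with exon 1 of 5730420D15Rik (chr10:94879258-94879557).
OCR_115652: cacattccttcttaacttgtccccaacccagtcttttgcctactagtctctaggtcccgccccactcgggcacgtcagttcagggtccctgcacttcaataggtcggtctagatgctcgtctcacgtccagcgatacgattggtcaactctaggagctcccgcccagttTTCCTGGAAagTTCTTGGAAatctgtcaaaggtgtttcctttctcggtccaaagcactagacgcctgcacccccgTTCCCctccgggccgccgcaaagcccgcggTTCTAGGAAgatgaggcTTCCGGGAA
OCR_115647: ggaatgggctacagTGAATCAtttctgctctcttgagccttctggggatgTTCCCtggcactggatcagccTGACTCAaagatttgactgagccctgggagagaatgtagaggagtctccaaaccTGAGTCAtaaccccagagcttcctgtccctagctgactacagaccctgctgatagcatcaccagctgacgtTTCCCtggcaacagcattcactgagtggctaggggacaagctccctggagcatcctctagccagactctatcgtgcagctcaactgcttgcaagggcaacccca
OCR_44014: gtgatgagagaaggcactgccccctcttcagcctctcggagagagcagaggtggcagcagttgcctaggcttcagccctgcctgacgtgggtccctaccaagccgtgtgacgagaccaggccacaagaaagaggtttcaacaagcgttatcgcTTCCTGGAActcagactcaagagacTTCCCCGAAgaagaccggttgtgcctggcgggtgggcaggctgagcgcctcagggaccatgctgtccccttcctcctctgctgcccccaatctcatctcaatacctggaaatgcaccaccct
OCR_13913: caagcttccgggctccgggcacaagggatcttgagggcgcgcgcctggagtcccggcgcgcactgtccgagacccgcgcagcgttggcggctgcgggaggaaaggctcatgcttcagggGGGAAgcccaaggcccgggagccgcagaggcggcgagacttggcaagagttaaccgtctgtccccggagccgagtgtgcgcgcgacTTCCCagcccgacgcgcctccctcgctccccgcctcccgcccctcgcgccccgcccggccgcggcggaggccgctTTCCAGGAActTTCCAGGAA
The Cish start holds 4 STAT matches in this stretch and 5 in the whole region, and 1 of those printed overlaps an Ikaros core. The stretch of OCR_115647 holds 3 AP-1 matches and 2 Ikaros cores, and the whole region holds 4 Ikaros cores. OCR_44014 holds 2 STAT matches, 1 of which overlaps an Ikaros core, and OCR_13913 holds 2 adjacent STAT matches near the 3′ end of the stretch, both with the letters TTCCAGGAA. Of regions within 10% of their length, 30.8% (OCR_115652), 10.1% (OCR_115647), 21.6% (OCR_44014) and 32.1% (OCR_13913, of 134 such regions) hold a STAT match.

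Across all members, 22.3% held a STAT match, against 13.6% of all regions and 17.7% of the regions tested. Members were 440 bp long at the median and all regions 410 bp, and the density of STAT matches was 0.533 per kb in members and 0.287 per kb in all regions. The Ikaros core was present in 76.7% of members and 70.8% of all regions, and the AP-1 motif in 27.2% and 20.2%. By gene, a STAT match was found in 9 of 25 regions at Il2ra, 5 of 14 at Cish and 3 of 10 at Socs1, but in 3 of 27 at Stat5b, 3 of 23 at Stat5a, 2 of 12 at Il2rb and 1 of 6 at Socs2. These shares are descriptions of the sequence, with no test.

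Of the 103 members, 91 passed the filter on low counts (3.6 CPM, the counts scaled to the library total, in at least 3 libraries) and were tested with 69957 regions in all, and the 12 that did not had mean levels of 4.97 to 9.26 FPKM. In 6 of the 91 the libraries that carried the region past this filter were all of 1 genotype or all of 1 state. Of these 6, OCR_20432, OCR_20450 and OCR_44015 also passed the adjusted p in the direction that the filter favours, so for them the test is no independent sign of a difference. The tested members were of middling to high accessibility, with a median percentile of 61.5 among tested regions, 22 members in the strongest 20% and 4 in the weakest 20%. A region was called when edgeR's quasi-likelihood test gave an adjusted p under 0.05 and the log2 fold change exceeded 1 in size, and counts at the adjusted p alone are given beside it. Fold changes are on a log2 scale throughout, with n = 3 libraries per group. Errors of fold changes are SE and errors of FPKM levels are SD. The median log2 fold change of all tested regions was −0.13 between genotypes ex vivo, and −0.02 when the libraries were scaled by TMM.

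Few members of the IL-2 receptor and STAT5 group were called, and the direction differed between genes. Between Ikzf1-cko and WT Treg ex vivo, 1 member was called, where 4.63% of all tested regions were. At the adjusted p alone, 13 members were higher in Ikzf1-cko (background 8.78%) and 8 were lower (background 12.7%). After stimulation, 2 members were called (background 21.3%), with 24 higher (background 20.4%) and 8 lower (background 30.7%) at the adjusted p alone. The higher members lay at Cish (5 ex vivo, 4 stimulated), Socs1 (4 and 6), Socs2 (1 and 4), Il2ra (2 and 8), Il2rb (0 and 2) and Stat5a (1 and 0). Those lower lay mainly at Stat5b, with 7 ex vivo and 6 stimulated, in part shared with Stat5a (2 and 3). There was 1 at Il2ra ex vivo and 1 at Il2rb after stimulation. Of the 59 members that reached 3.6 CPM in all 12 libraries, 13 were higher ex vivo (background 16%) and 7 lower (background 11.5%). After stimulation 21 of them were higher (background 36.7%) and 5 lower (background 9.86%). None of the 59 was called in either state, where 0.99% of regions ex vivo and 2.5% after stimulation were. These backgrounds cover the 34257 regions past the same filter.

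Stimulation lowered more members than it raised. In WT Treg 1 member was called (background 20%), with 4 higher (background 26.9%) and 28 lower (background 20.7%) at the adjusted p alone. In Ikzf1-cko Treg 2 members were called (background 3.65%), with 3 higher (background 12%) and 19 lower (background 11.5%). Of the 59 members that reached 3.6 CPM in all 12 libraries, 2 were higher (background 10.7%) and 26 lower (background 35.7%) in WT. In Ikzf1-cko 3 of them were higher (background 14.5%) and 18 lower (background 20.5%), with backgrounds over the regions past the same filter. None of these 59 was called in WT (background 3.62%), and 1 was in Ikzf1-cko (background 0.806%). The effect of genotype differed with stimulation at no member past both thresholds (background 1.98%), at 3 members in the positive direction by the adjusted p alone (background 5.66%) and at none in the negative direction (background 1.82%). Of the 59 members past the filter in all 12 libraries, 3 were positive and none was negative (background 14.7% and 1.93%). With loess the interaction counts were 1 and 1 (background 2.23% and 1.44%), and in thinned libraries 1 and 2 (background 3.5% and 1.11%). Median log2 fold changes of members were 0.09 ex vivo and 0.17 stimulated between genotypes, and −0.26 in WT and −0.10 in Ikzf1-cko with stimulation, beside −0.13, −0.11, 0.04 and 0.06 over all tested regions.

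**Figure D1:**
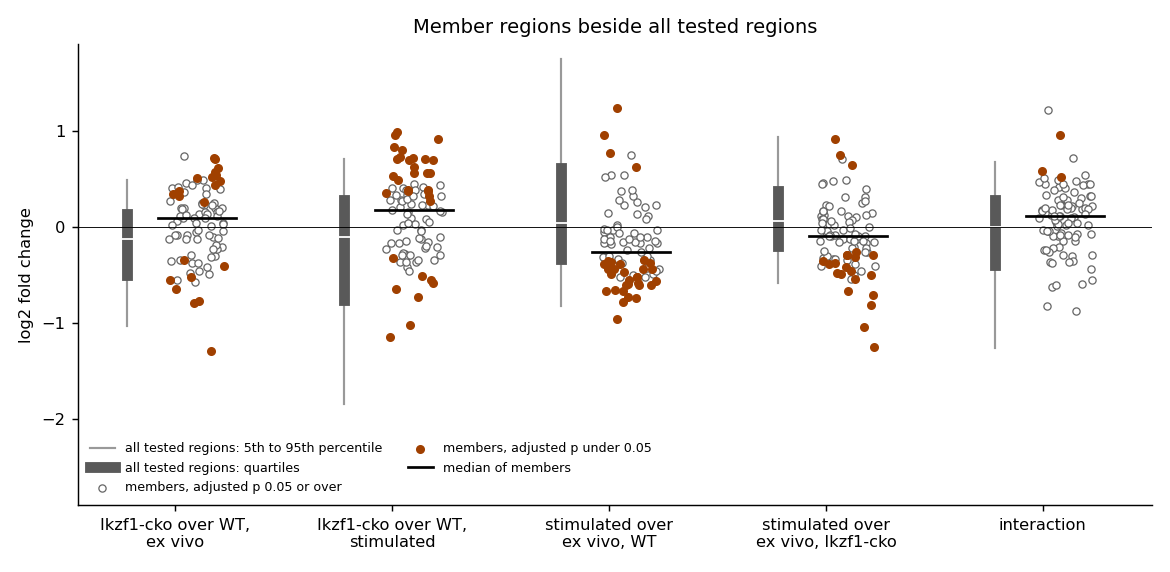
Log2 fold change of each of the 91 tested member regions (points, filled at an adjusted p under 0.05, line at the median) in each comparison, beside the quartiles (bar) and the 5th to 95th percentiles (line) of all 69957 tested regions. The member medians lie at 0.09 and 0.17 between genotypes and at −0.26 and −0.10 with stimulation, and few points pass a log2 change of 1 in size.

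These counts moved with the scaling and with single libraries. Scaled by TMM, 26 members were higher and 5 lower ex vivo (background 14.4% and 8.69%). After stimulation 30 were higher and 6 lower (background 23.3% and 28.3%). With a loess scaling that removes the trend of fold change with abundance, the counts were 15 and 7 ex vivo (background 7.87% and 7.9%). The loess counts after stimulation were 19 and 10 (background 14.1% and 14.8%). With stimulation they were 3 and 18 in WT (background 16.5% and 16.2%) and 2 and 15 in Ikzf1-cko (background 12% and 11%). In libraries thinned to 1 depth, 5 were higher and 7 lower ex vivo (background 5.77% and 7.7%). In these libraries 20 and 6 were after stimulation (background 17.5% and 26.9%). With stimulation the thinned counts were 3 and 25 in WT (background 24.5% and 18.4%) and 0 and 11 in Ikzf1-cko (background 6.14% and 6.71%). DESeq2 gave 14 and 2, 27 and 2, 4 and 24, and 0 and 10 in the same order. Its backgrounds were 9.3% and 5.66%, 21.7% and 24.2%, 22.6% and 18.4%, and 6.28% and 7.8%. With no filter, which tests all 103 members, the counts were 11 and 8, 25 and 8, 6 and 28, and 4 and 15. The backgrounds without a filter were 4.92% and 10.7%, 12.1% and 35.6%, 32% and 12%, and 11.7% and 6.61%.

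Single libraries moved the member counts too, and the shares over all regions are not given for these fits. Ex vivo, 7 members were higher without replicate 1 or 2 of WT or replicate 2 of Ikzf1-cko, and 5 were lower without replicate 2 of WT. Between stimulated genotypes 1 was lower without replicate 2 of stimulated WT (of 87 tested) and 5 without replicate 2 of stimulated Ikzf1-cko, while the higher ones numbered 16 to 24 over all 6 such fits. With stimulation in WT 14 were lower without replicate 1 of stimulated WT. In Ikzf1-cko 8 were lower without replicate 2 of either state, and 0 to 5 were higher over the 6 fits. The interaction counts ran from 2 to 5 in the positive direction, with 5 without replicate 2 of stimulated WT.

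Accessibility summed over all regions of a gene gave 1 level per library, in FPKM. Socs1 was the most accessible of the 7 loci in all 4 groups, at 41.4 ± 3.11 FPKM (SD, n = 3) in WT ex vivo, 51.3 ± 1.55 in Ikzf1-cko ex vivo, 32.7 ± 2.55 in stimulated WT and 49.4 ± 1.6 in stimulated Ikzf1-cko Treg. Cish came next, with means of 28.9, 34.7, 23.9 and 28.1 FPKM in the same order, and its libraries lay above those of the next locus in every group but stimulated WT. Il2ra, Il2rb, Stat5a and Stat5b fell within 14.7 to 21.7 FPKM as group means. Their libraries overlapped those of the neighbour in the order in most cases, except that Stat5b stood above Il2ra, and Stat5a above Il2rb, in WT ex vivo. Socs2 was the lowest locus in WT Treg, at 14.3 ± 0.273 ex vivo and 11.0 ± 0.279 stimulated, and all 3 libraries of either group lay below the next locus. In Ikzf1-cko Treg it reached 16.3 ± 1.1 and 17.0 ± 0.656 and overlapped its neighbours.

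**Figure D2:**
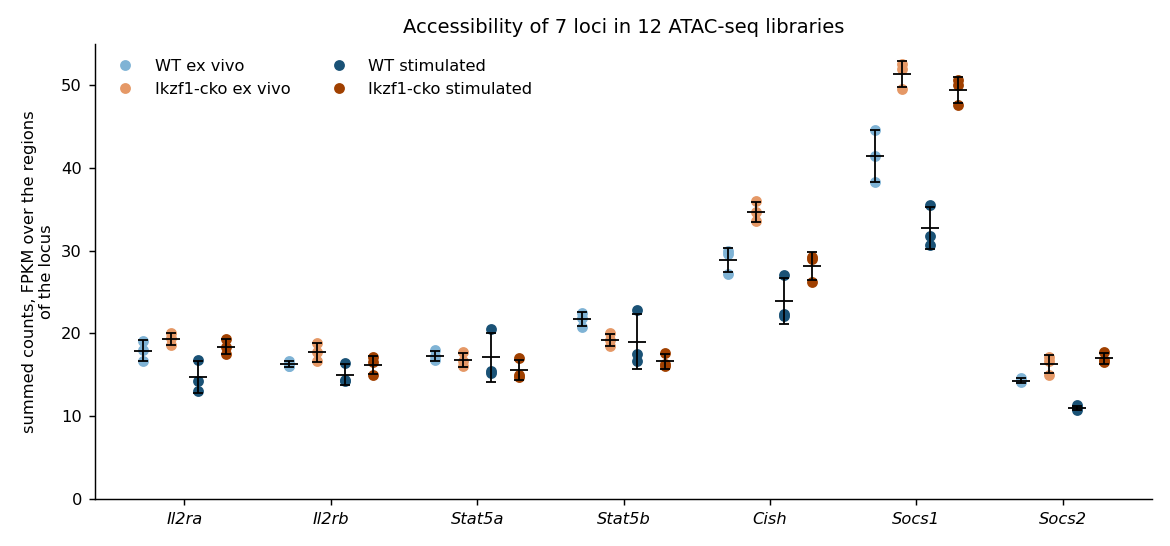
Accessibility summed over the regions of each of the 7 genes, in FPKM, for each of the 12 libraries (points) with the group mean and SD. The Socs1 and Socs2 libraries of stimulated Ikzf1-cko Treg all lie above those of stimulated WT Treg, whereas those of Stat5a overlap.

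The genotype difference in these sums was tested over 27532 gene loci with the same edgeR model. Ex vivo, 3 of the 7 loci were higher in Ikzf1-cko and none was lower, where 11.9% of all loci were higher and 11.1% lower. After stimulation 4 were higher and none lower, where 35.3% and 27.1% of all loci were. With stimulation in WT Treg none rose and 4 fell (background 32.5% and 27.4%), and in Ikzf1-cko Treg none rose and 1 fell (background 21.8% and 9.57%). The effect of genotype was greater after stimulation at 2 loci and smaller at none (background 13.1% and 3.5%).

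Il2ra, the alpha chain gene, held 16.7, 18.0 and 19.1 FPKM in WT ex vivo, 19.4, 20 and 18.6 in Ikzf1-cko ex vivo, 13.0, 16.8 and 14.2 in stimulated WT and 17.5, 18.3 and 19.3 in stimulated Ikzf1-cko Treg. The genotypes overlapped ex vivo, and after stimulation every Ikzf1-cko library lay above every WT library. Between genotypes the log2 fold change was 0.11 ± 0.08 (SE) ex vivo (edgeR adjusted p = 0.32) and 0.33 ± 0.08 after stimulation (edgeR adjusted p = 0.0022). In WT Treg the locus fell by 0.29 with stimulation (edgeR adjusted p = 0.0055), and in Ikzf1-cko the value was −0.07 (edgeR adjusted p = 0.49). The difference between these effects, 0.22 ± 0.11, did not pass (edgeR adjusted p = 0.18). With the loess scaling the Il2ra differences were 0.02 between stimulated genotypes (adjusted p = 0.79) and 0.01 with stimulation in WT, so both calls were lost.

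The start of Il2ra itself, OCR_60385 (chr2:11563775-11564724, exon 1), was not called in any comparison. It held 19.8, 20.9 and 24.0 FPKM in WT ex vivo, 23.6, 23.4 and 22.6 in Ikzf1-cko ex vivo, 21.2, 25.0 and 19.0 in stimulated WT and 25.0, 22.5 and 27.9 in stimulated Ikzf1-cko Treg. All 4 groups overlapped, and the log2 fold change between stimulated genotypes was 0.21 ± 0.12 (edgeR adjusted p = 0.14). Of the 21 tested regions of the locus, 8 others were higher in stimulated Ikzf1-cko Treg.

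The intronic region OCR_60391, with its 2 STAT matches, held 21.8, 25.7 and 29.3 FPKM in WT ex vivo and 30.5, 33.4 and 28.7 in Ikzf1-cko ex vivo. After stimulation it held 14.4, 20.5 and 19.9 in WT and 27.8, 31.8 and 28.1 in Ikzf1-cko Treg. The stimulated genotypes were separate, while the ex vivo ones overlapped. After stimulation the log2 fold change was 0.69 ± 0.13 (edgeR adjusted p = 1.1e-04), short of the fold threshold, and the adjusted p stayed under 0.05 under every other setting run and with any 1 library left out. Next to it, the strongest region of the locus, OCR_60390 (chr2:11574804-11575552, first intron), fell by 0.61 in WT Treg with stimulation (edgeR adjusted p = 7.5e-05) and by 0.39 in Ikzf1-cko (edgeR adjusted p = 0.0017). It was higher by 0.48 in stimulated Ikzf1-cko than WT Treg (edgeR adjusted p = 5.8e-04), but not with the loess scaling (0.15, adjusted p = 0.25).

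Upstream of Il2ra, OCR_60381 held 9.94, 10.5 and 15.0 FPKM in WT ex vivo, 9.58, 11.3 and 12.7 in Ikzf1-cko ex vivo, 7.56, 10.2 and 12 in stimulated WT and 16.4, 14.0 and 21.3 in stimulated Ikzf1-cko Treg. The 3 stimulated Ikzf1-cko libraries lay above the other stimulated libraries, and the ex vivo genotypes overlapped. Between genotypes it was higher by 0.83 ± 0.22 after stimulation (edgeR adjusted p = 0.0019), and the ex vivo value was −0.12. The difference of the genotype effects was 0.95 ± 0.30 (edgeR adjusted p = 0.044), which no longer passed in 6 of 12 fits that left out 1 library, nor with TMM, loess, limma, DESeq2, no filter or thinned libraries (adjusted p between 0.063 and 0.16). This region was named after its values were seen. In the other direction, OCR_60383 (chr2:11556439-11558180, intergenic, 6.24 kb upstream) was lower in Ikzf1-cko ex vivo by a log2 value of −0.35 (edgeR adjusted p = 0.0097), and was not past the threshold with TMM (−0.23, adjusted p = 0.12), limma (adjusted p = 0.07) or DESeq2 (adjusted p = 0.14).

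Il2rb, the beta chain gene shared by the IL-2 and IL-15 receptors, showed no locus difference past the threshold in any comparison over the full window with library totals. Its level was 16.0 to 16.7 FPKM in WT ex vivo, 16.6 to 18.8 in Ikzf1-cko ex vivo, 14.2 to 16.4 in stimulated WT and 15.0 to 17.2 in stimulated Ikzf1-cko Treg, and the genotypes overlapped in both states. Between genotypes the log2 fold change was 0.12 ± 0.07 ex vivo (edgeR adjusted p = 0.20) and 0.11 ± 0.07 stimulated (edgeR adjusted p = 0.17). With TMM the ex vivo value was 0.24 and passed (adjusted p = 0.024), and with loess the stimulated value turned to −0.12. Over the gene body alone 3 comparisons passed, at 0.23 between stimulated genotypes (adjusted p = 0.013), −0.33 with stimulation in WT (adjusted p = 0.0015) and −0.26 in Ikzf1-cko (adjusted p = 0.0078). Without replicate 2 of stimulated WT the first and the second of these also passed over the full window (0.18 and −0.19, adjusted p = 0.034 each), and the third did with loess (−0.16, adjusted p = 0.048) and DESeq2 (−0.20, adjusted p = 0.023).

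The Il2rb start, OCR_41741 (chr15:78325223-78326297, exon 1), held 31.5, 34.8 and 30.7 FPKM in WT ex vivo, 35.0, 34.2 and 33.9 in Ikzf1-cko ex vivo, 23.7, 24.1 and 23.6 in stimulated WT and 27.0, 26.4 and 32.4 in stimulated Ikzf1-cko Treg. The stimulated WT libraries were the lowest and did not overlap any other group. The region fell by 0.44 with stimulation in WT Treg (edgeR adjusted p = 0.001), and with loess the value was −0.20 (adjusted p = 0.11). Ex vivo the 13 higher and 8 lower members included none of the 11 tested at Il2rb. Of these 11, OCR_41743 was higher in Ikzf1-cko ex vivo with TMM (0.61, edgeR adjusted p = 0.018) and loess (0.58, adjusted p = 0.034). It also passed with the filter in all 12 libraries (0.50, adjusted p = 0.038) and without replicate 3 of Ikzf1-cko ex vivo (0.55, adjusted p = 0.03). The Il2rb region lower in stimulated Ikzf1-cko Treg, OCR_41737 (chr15:78310535-78310911, intergenic), had a log2 fold change of −0.73 (edgeR adjusted p = 0.016). Without replicate 2 of stimulated WT it was −0.44 (adjusted p = 0.22). With loess, limma or DESeq2 it did not pass (adjusted p between 0.052 and 0.11).

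Stat5a and Stat5b, which encode the STAT5 proteins, had locus values between genotypes that were negative in both states, and none of their sums passed with library totals over the full window. Stat5b held 20.8, 22.4 and 21.8 FPKM in WT ex vivo, 18.5, 20 and 19.2 in Ikzf1-cko ex vivo, 16.7, 22.8 and 17.5 in stimulated WT and 17.6, 16.0 and 16.3 in stimulated Ikzf1-cko Treg. The ex vivo genotypes did not overlap, and replicate 2 of stimulated WT was the highest of all 12 libraries. Its log2 fold change between genotypes was −0.17 ± 0.09 ex vivo (edgeR adjusted p = 0.14) and −0.19 ± 0.09 stimulated (edgeR adjusted p = 0.07). With loess both passed (−0.27, adjusted p = 0.016, and −0.49, adjusted p = 1.0e-04). The stimulated value also passed with DESeq2 (−0.23, adjusted p = 0.0076), over the gene body alone (−0.28, adjusted p = 0.027) and without replicate 1 or 3 of stimulated WT, and the ex vivo value in a fit of those groups alone (adjusted p = 0.041). With stimulation in Ikzf1-cko Treg Stat5b passed with TMM (−0.27, adjusted p = 0.031), DESeq2 (−0.28, adjusted p = 0.0018), the gene body alone (−0.31, adjusted p = 0.029) and the compared groups alone (−0.21, adjusted p = 0.013). In WT it passed with DESeq2 (−0.22, adjusted p = 0.01) and without replicate 2 of stimulated WT (−0.34, adjusted p = 3.4e-04), but was 0.10 with loess.

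Stat5a levels were 16.8 to 18.0 FPKM in WT ex vivo, 16.1 to 17.7 in Ikzf1-cko ex vivo, 15.2 to 20.5 in stimulated WT and 14.7 to 17.0 in stimulated Ikzf1-cko Treg. The genotypes overlapped in both states. The values between genotypes were −0.04 ± 0.09 ex vivo (edgeR adjusted p = 0.75) and −0.13 ± 0.09 stimulated (edgeR adjusted p = 0.22), and the ex vivo value was 0.08 with TMM. The loess value after stimulation was −0.42 (adjusted p = 7.8e-04), and without replicate 2 of stimulated WT it was 0.02 (adjusted p = 0.81).

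The called members were all at the Stat5 genes. OCR_20432, in the first intron of Stat5b, held 21.7, 22.2 and 29.0 FPKM in WT ex vivo, 8.87, 9.33 and 12 in Ikzf1-cko ex vivo, 10.9, 20.6 and 11.3 in stimulated WT and 7.59, 8.32 and 5.43 in stimulated Ikzf1-cko Treg. Every Ikzf1-cko library lay below every WT library of the same state. The region reached 3.6 CPM in 4 libraries, all of them WT, so it was tested only because it was high in that genotype. The log2 fold change was −1.29 ± 0.25 ex vivo (edgeR adjusted p = 3.3e-04), between −1.43 and −1.13 with any 1 library left out, all past the threshold, and −1.3 when no filter was applied (adjusted p = 4.3e-04). After stimulation it was −1.02 ± 0.31 (edgeR adjusted p = 0.0068), but −0.65 without replicate 2 of stimulated WT (adjusted p = 0.15), −0.51 with loess (adjusted p = 0.22) and −0.81 with thinned libraries (adjusted p = 0.082).

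OCR_20443, in the same intron nearer the start, held 24.0, 21.9 and 22.8 FPKM in WT ex vivo, 16.6, 22.7 and 15.3 in Ikzf1-cko ex vivo, 14.0, 23.7 and 13.0 in stimulated WT and 7.26, 7.72 and 7.79 in stimulated Ikzf1-cko Treg. The stimulated Ikzf1-cko libraries were the lowest of all and close together. The region reached 3.6 CPM in 6 libraries, none of them stimulated Ikzf1-cko. Its entry through the other groups thus favoured a lower value in that group, and its calls are no independent sign of a difference. With stimulation the region fell by 1.25 ± 0.25 in Ikzf1-cko Treg (edgeR adjusted p = 4.6e-04), and the call held with any 1 library left out. Between stimulated genotypes it was −1.15 ± 0.29 (edgeR adjusted p = 0.0016), against −0.83 without replicate 2 of stimulated WT (adjusted p = 0.051) and −0.72 with loess (adjusted p = 0.067). In WT Treg the stimulation value was −0.43 (edgeR adjusted p = 0.18), and the difference between the genotypes' stimulation effects did not pass (−0.83 ± 0.37, edgeR adjusted p = 0.16).

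OCR_20435 held 31.1, 39.2 and 41.4 FPKM in WT ex vivo, 31.9, 32.7 and 40.7 in Ikzf1-cko ex vivo, 19.1, 32.9 and 23.1 in stimulated WT and 15.0, 17.9 and 17.9 in stimulated Ikzf1-cko Treg. The ex vivo genotypes overlapped and the stimulated ones did not. The region fell by 1.04 ± 0.15 with stimulation in Ikzf1-cko Treg (edgeR adjusted p = 6.9e-06), and by 0.60 ± 0.17 in WT (edgeR adjusted p = 0.0046). The difference between stimulated genotypes, −0.55 (edgeR adjusted p = 0.012), was −0.30 without replicate 2 of stimulated WT (adjusted p = 0.24) and −0.45 with DESeq2 (adjusted p = 0.069). The strongest region at both Stat5 genes, OCR_20445, also fell with stimulation. With any 1 library left out its log2 fold change lay between −0.98 and −0.45 in WT and between −0.81 and −0.59 in Ikzf1-cko Treg.

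At the Stat5 starts the direction with stimulation differed from that of the introns at Stat5b but not clearly at Stat5a. The Stat5b start, OCR_20447 (chr11:100711423-100712141, exon 1), held 20.6, 19.9 and 19.6 FPKM in WT ex vivo, 20.5, 21.0 and 20.1 in Ikzf1-cko ex vivo, 29.4, 35.6 and 27.2 in stimulated WT and 29.3, 23.2 and 21.3 in stimulated Ikzf1-cko Treg. All stimulated libraries lay above all ex vivo libraries. It rose by 0.62 ± 0.14 in WT Treg (edgeR adjusted p = 4.8e-04), and the value in Ikzf1-cko was 0.25 ± 0.12 (edgeR adjusted p = 0.12). The difference between these stimulation effects did not pass (edgeR adjusted p = 0.20). Between stimulated genotypes the start was lower in Ikzf1-cko at the adjusted p. That difference did not pass with TMM (−0.26, adjusted p = 0.097), thinned libraries or DESeq2 (−0.23, adjusted p = 0.22), nor in 4 of 6 fits that left out 1 library.

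OCR_20450, next to the Stat5a start, rested on few reads, with 13.4, 4.19 and 7.36 FPKM in WT ex vivo, 11.1, 15.2 and 13.0 in Ikzf1-cko ex vivo, 16.7, 25.4 and 13.2 in stimulated WT and 26.8, 22.5 and 24.8 in stimulated Ikzf1-cko Treg. These values correspond to between 5 and 45 reads per library, and the region reached 3.6 CPM in 3 libraries, all of them stimulated, so it was tested only because it was high in that state. In each genotype the stimulated libraries were mostly the higher ones, though in WT 1 pair of libraries overlapped. The log2 rise with stimulation was 1.23 ± 0.42 in WT (edgeR adjusted p = 0.016) and 0.91 ± 0.32 in Ikzf1-cko Treg (edgeR adjusted p = 0.036). The WT value no longer passed without replicate 2 (0.90, adjusted p = 0.094) or replicate 3 (1.18, adjusted p = 0.051) of WT ex vivo and with loess (0.15, adjusted p = 0.81), and the region did not enter the fit of the compared groups alone or that without replicate 2 of stimulated WT. The Ikzf1-cko value, which was under the fold threshold, did not pass with loess (0.45, adjusted p = 0.25), with DESeq2 (0.89, adjusted p = 0.069) or in 3 of the 4 fits without 1 library that it entered.

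The strong region on the other side of the Stat5a start, OCR_20451 (chr11:100720911-100722245, exon 2, 0.246 kb downstream), was named after its values were seen. It held 35.0, 35.1 and 37.0 FPKM in WT ex vivo, 35.4, 39.5 and 36.9 in Ikzf1-cko ex vivo, 30.0, 36.1 and 29.9 in stimulated WT and 35.6, 33.5 and 33.2 in stimulated Ikzf1-cko Treg. The states overlapped in both genotypes. Its values with stimulation were −0.16 ± 0.09 in WT (edgeR adjusted p = 0.14) and −0.13 ± 0.08 in Ikzf1-cko (edgeR adjusted p = 0.24), opposite in sign to those of OCR_20450.

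**Figure D3:**
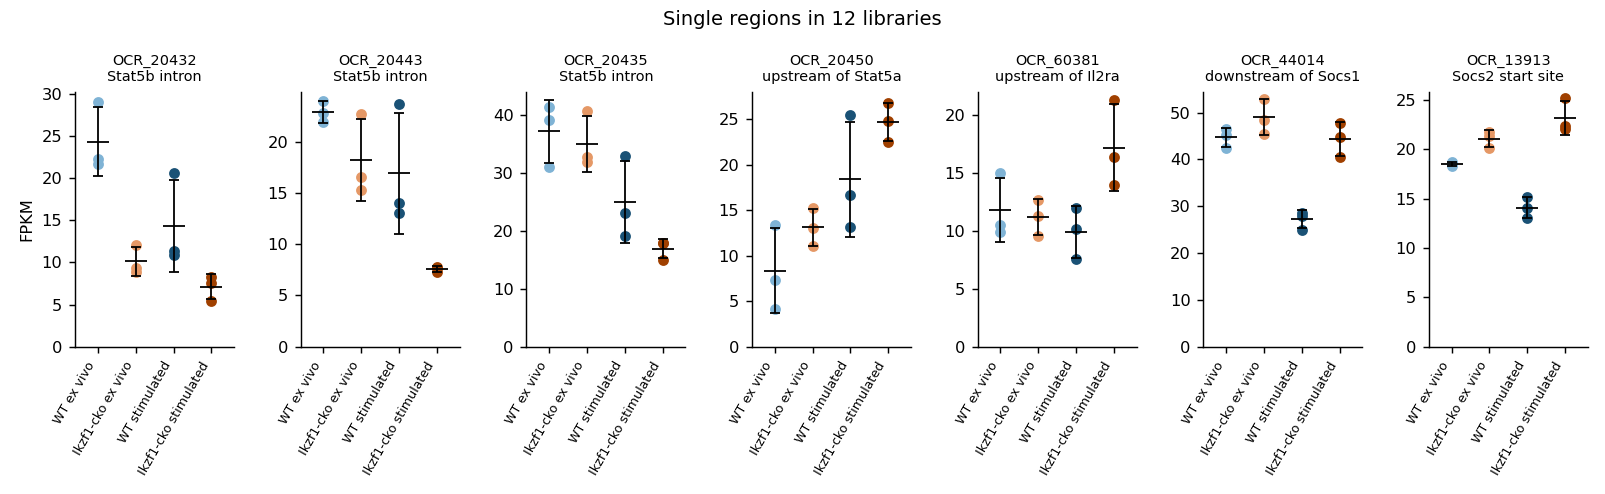
Accessibility of 7 single member regions in FPKM for each of the 12 libraries (points), with the group mean and SD (bars, n = 3). OCR_20432 in Stat5b is lower in every Ikzf1-cko library than in every WT library of the same state, and OCR_44014 and OCR_13913 at Socs1 and Socs2 are lowest in the 3 stimulated WT libraries.

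Cish encodes a SOCS family protein that is induced by STAT5 and restrains signalling from cytokine and antigen receptors. Its locus held 27.2, 29.6 and 29.9 FPKM in WT ex vivo, 34.6, 36.0 and 33.6 in Ikzf1-cko ex vivo, 22.1, 27.1 and 22.3 in stimulated WT and 29.0, 26.2 and 29.2 in stimulated Ikzf1-cko Treg. The ex vivo genotypes were separate and the stimulated ones overlapped at 1 library each. The locus was higher in Ikzf1-cko Treg by 0.26 ± 0.07 ex vivo (edgeR adjusted p = 0.018) and by 0.24 ± 0.07 after stimulation (edgeR adjusted p = 0.012). The ex vivo call was lost without replicate 1 of WT ex vivo (adjusted p = 0.088), replicate 2 of WT ex vivo (adjusted p = 0.052) or replicate 2 of Ikzf1-cko ex vivo (adjusted p = 0.083). The stimulated call was lost without replicate 1 or 3 of stimulated WT or replicate 3 of stimulated Ikzf1-cko, and turned to −0.08 with loess (adjusted p = 0.26). Over the gene body alone the values were 0.20 ex vivo (adjusted p = 0.12) and 0.15 stimulated (adjusted p = 0.20).

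Cish was the locus that fell with stimulation in both genotypes, by 0.28 ± 0.08 in WT (edgeR adjusted p = 0.0051) and by 0.30 ± 0.07 in Ikzf1-cko Treg (edgeR adjusted p = 0.0050). With loess the WT value was 0.04. The difference between these effects was −0.03 ± 0.10 (edgeR adjusted p = 0.90). Of its 14 regions, 5 were lower with stimulation in WT (background 20.7%) and 8 in Ikzf1-cko Treg (background 11.5%), and none was higher in either.

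OCR_115649 (chr9:107182143-107183865), 14.5 kb upstream of Cish in an intron of Mapkapk3, held 22.3, 22.1 and 20.1 FPKM in WT ex vivo, 34.1, 33.7 and 29.9 in Ikzf1-cko ex vivo, 15.7, 18.1 and 13.4 in stimulated WT and 19.0, 19.6 and 22.5 in stimulated Ikzf1-cko Treg. The genotypes were separate in both states, and the ex vivo Ikzf1-cko libraries stood highest. The log2 fold change between genotypes was 0.61 ± 0.09 ex vivo (edgeR adjusted p = 1.4e-05), between 0.56 and 0.67 with any 1 library left out, and with stimulation the region fell by 0.67 ± 0.09 in Ikzf1-cko Treg (edgeR adjusted p = 1.0e-06). Close by, OCR_115647, with 3 AP-1 matches, held 28.9, 29.7 and 29.2 FPKM in WT ex vivo, 39.5, 42.7 and 39.5 in Ikzf1-cko ex vivo, 20.8, 20 and 16.5 in stimulated WT and 30.2, 25.6 and 37.2 in stimulated Ikzf1-cko Treg. It was higher in Ikzf1-cko by 0.47 ± 0.14 ex vivo (edgeR adjusted p = 0.014, and 0.12 in thinned libraries) and by 0.70 ± 0.17 stimulated (edgeR adjusted p = 8.8e-04). Which of Cish and Mapkapk3 these regions act on was not measured.

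The Cish start, OCR_115652, which holds the STAT matches printed earlier, held 37.1, 40.3 and 42.0 FPKM in WT ex vivo, 45.0, 49.1 and 45.2 in Ikzf1-cko ex vivo, 28.6, 41.0 and 33.7 in stimulated WT and 38.8, 34.7 and 39.2 in stimulated Ikzf1-cko Treg. The ex vivo genotypes were separate, yet the log2 fold change of 0.22 ± 0.09 did not pass (edgeR adjusted p = 0.068). After stimulation the value was 0.13 ± 0.09 (edgeR adjusted p = 0.25). In Ikzf1-cko Treg the start fell by 0.30 with stimulation (edgeR adjusted p = 0.0078).

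Socs1, which encodes a direct inhibitor of JAK kinases, was the locus of highest accessibility. Its sum was 38.3, 41.4 and 44.6 FPKM in WT ex vivo, 51.9, 52.5 and 49.5 in Ikzf1-cko ex vivo, 30.7, 35.5 and 31.8 in stimulated WT and 50.0, 47.6 and 50.6 in stimulated Ikzf1-cko Treg. All 6 Ikzf1-cko libraries lay above all 6 WT libraries. The log2 fold change between genotypes was 0.30 ± 0.06 ex vivo (edgeR adjusted p = 0.0043) and 0.60 ± 0.07 stimulated (edgeR adjusted p = 6.6e-06), and both calls held with any 1 library left out and with loess (0.21 and 0.31). Stimulation lowered it by 0.35 ± 0.07 in WT (edgeR adjusted p = 4.9e-04), and in Ikzf1-cko the value was −0.05 ± 0.06 (edgeR adjusted p = 0.53). The difference between the genotype effects, 0.29 ± 0.09 (edgeR adjusted p = 0.04), was lost in 9 of the 12 fits that left out 1 library. It was also lost with TMM, loess, DESeq2 and over the gene body alone (adjusted p between 0.059 and 0.28), and over the gene body alone the WT value with stimulation was −0.11 (adjusted p = 0.23).

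The Socs1 start, OCR_44018 (chr16:10785011-10786292), held 50.3, 57.1 and 60.1 FPKM in WT ex vivo, 69.9, 74.7 and 72.6 in Ikzf1-cko ex vivo, 51.2, 56.3 and 48.3 in stimulated WT and 77.2, 73.6 and 78.7 in stimulated Ikzf1-cko Treg. The genotypes were separate in both states, and the 2 states overlapped in WT. It was higher in Ikzf1-cko by 0.37 ± 0.07 ex vivo (edgeR adjusted p = 4.8e-04) and by 0.56 ± 0.08 stimulated (edgeR adjusted p = 1.2e-06), the latter 0.16 with loess (adjusted p = 0.064).

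OCR_44014, downstream of Socs1, held 42.5, 45.2 and 46.5 FPKM in WT ex vivo, 53.0, 48.5 and 45.4 in Ikzf1-cko ex vivo, 25.0, 28.5 and 28.0 in stimulated WT and 47.8, 40.5 and 44.9 in stimulated Ikzf1-cko Treg. The 3 stimulated WT libraries were far below the other 9. The region fell by 0.73 ± 0.11 with stimulation in WT (edgeR adjusted p = 3.7e-06), and the value in Ikzf1-cko was −0.15 ± 0.08 (edgeR adjusted p = 0.21). The difference between these effects was 0.58 ± 0.14 (edgeR adjusted p = 0.0083), between 0.52 and 0.65 with any 1 library left out, and 0.37 with loess (adjusted p = 0.089). Near it, OCR_44015 (chr16:10774885-10775081, intergenic) reached 3.6 CPM only in the 3 stimulated Ikzf1-cko libraries. It held 7.55, 12.1 and 13.7 FPKM in stimulated WT and 19.8, 22.7 and 22.1 in stimulated Ikzf1-cko Treg, a log2 difference of 0.98 (edgeR adjusted p = 0.0066) that its entry through that group favoured.

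Socs2, whose product restrains growth hormone and cytokine signalling, was the lowest locus in WT Treg. Its sum was 14.1, 14.2 and 14.6 FPKM in WT ex vivo, 17.1, 16.6 and 15.0 in Ikzf1-cko ex vivo, 11.3, 10.7 and 11.1 in stimulated WT and 16.8, 16.5 and 17.8 in stimulated Ikzf1-cko Treg. The genotypes were separate in both states. The log2 fold change was 0.63 ± 0.06 after stimulation (edgeR adjusted p = 4.1e-06), between 0.60 and 0.65 with any 1 library left out and 0.45 with loess. Ex vivo it was 0.19 ± 0.06 (edgeR adjusted p = 0.031), a call lost without replicate 1 or 2 of either ex vivo group, with loess (0.12, adjusted p = 0.15), with DESeq2 (adjusted p = 0.063) and over the gene body alone (adjusted p = 0.28). Stimulation lowered the locus by 0.38 ± 0.07 in WT (edgeR adjusted p = 2.0e-04), and in Ikzf1-cko the value was 0.07 ± 0.06 (edgeR adjusted p = 0.39). The difference between the genotype effects was 0.44 ± 0.09 (edgeR adjusted p = 0.0056) and held with any 1 library left out.

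The Socs2 start, OCR_13913, held 18.6, 18.3 and 18.7 FPKM in WT ex vivo, 21.4, 21.8 and 20.1 in Ikzf1-cko ex vivo, 14.1, 15.2 and 13.0 in stimulated WT and 22.1, 22.4 and 25.2 in stimulated Ikzf1-cko Treg. No library of a genotype overlapped the other, and stimulated WT was the lowest group. The log2 fold change was 0.72 ± 0.09 after stimulation (edgeR adjusted p = 2.2e-07) and 0.19 ± 0.08 ex vivo (edgeR adjusted p = 0.08). The difference between them, 0.52 ± 0.12 (edgeR adjusted p = 0.0058), was 0.30 with loess (adjusted p = 0.093), 0.44 in thinned libraries (adjusted p = 0.06) and 0.50 with limma (adjusted p = 0.059). OCR_13910 (chr10:94834371-94835220), downstream of Socs2 in intergenic DNA, held 10.4, 10.4 and 11.5 FPKM in WT ex vivo, 18.2, 14.6 and 13.4 in Ikzf1-cko ex vivo, 8.56, 7.09 and 8.32 in stimulated WT and 16.5, 14.6 and 15.5 in stimulated Ikzf1-cko Treg, and was higher in stimulated Ikzf1-cko by 0.95 ± 0.16 (edgeR adjusted p = 2.6e-05).

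**Figure D4:**
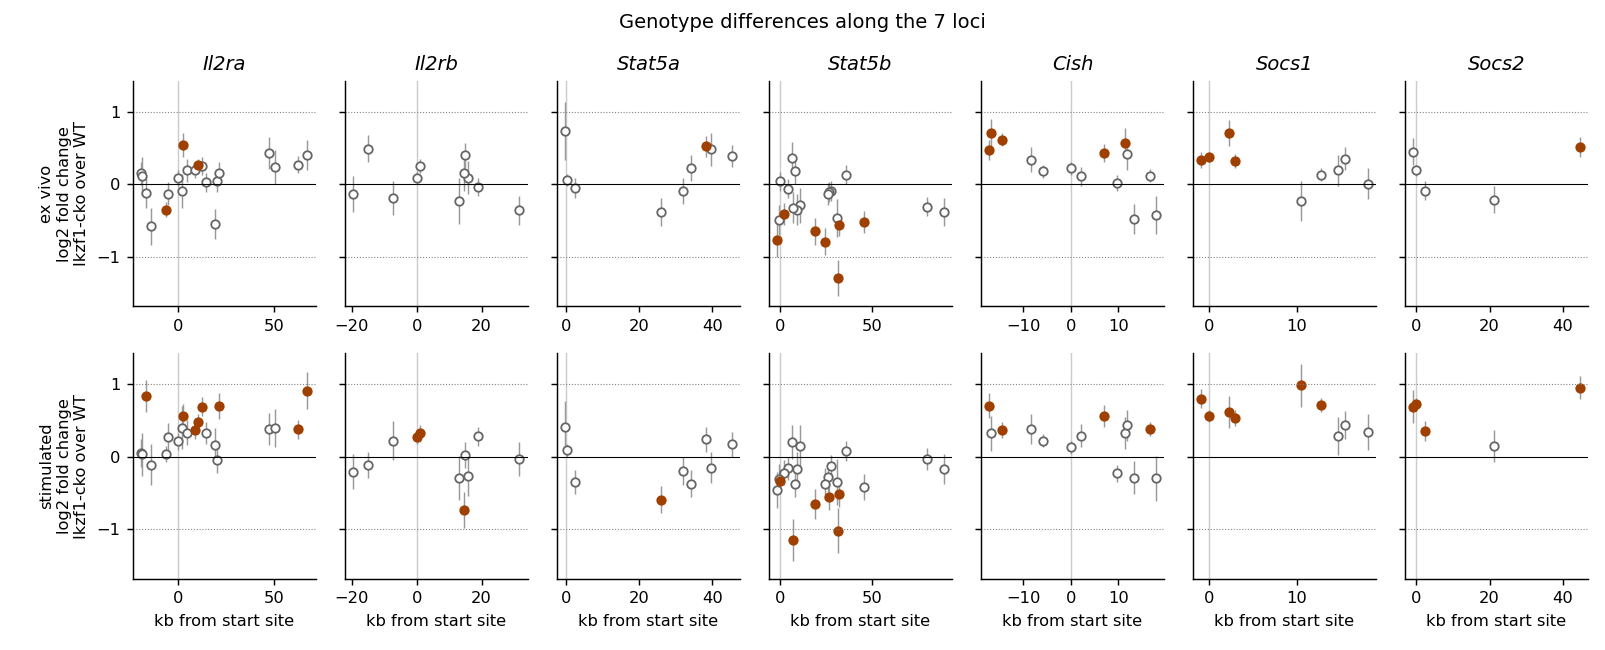
Log2 fold change between Ikzf1-cko and WT Treg of each tested member region (points with SE, filled at an adjusted p under 0.05), ex vivo above and stimulated beneath, against its distance in kb from the start of the nearest of the 7 genes, each region drawn once. Filled points lie mostly above 0 at Il2ra, Cish, Socs1 and Socs2 and below 0 in Stat5b, and the Il2ra start at 0 kb is not filled.

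The 3 members at which the genotype effect differed with stimulation, OCR_60381, OCR_44014 and OCR_13913, each held a STAT match, as described with their sequences. Of the 24 members higher in stimulated Ikzf1-cko Treg 10 held a STAT match and 11 an AP-1 match, and of the 8 lower none held a STAT match and 1 an AP-1 match. Ex vivo the shares lay closer, with a STAT match in 2 of 13 higher and 1 of 8 lower members and an AP-1 match in 6 and 3. Of all tested regions 17.7% held a STAT match and 23.9% an AP-1 match. An Ikaros core was found in 21 of the 24 higher and 4 of the 8 lower members after stimulation. Ex vivo it was found in 12 of 13 higher and 5 of 8 lower members, and in 80.8% of all tested regions. Of the 28 members lower with stimulation in WT Treg 7 held a STAT match, 13 an AP-1 match and 22 an Ikaros core. The split also followed the genes. A STAT match was found in 36.0% of regions at Il2ra and 35.7% at Cish, but in 11.1% at Stat5b, where most lower members lay. The sets are small and were not tested, and regions of the higher set were longer (median 657 bp, against 494 bp in the lower set). The lower set after stimulation also held 1 member without replicate 2 of stimulated WT (of 87 tested), and 2 with DESeq2.

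**Figure D5:**
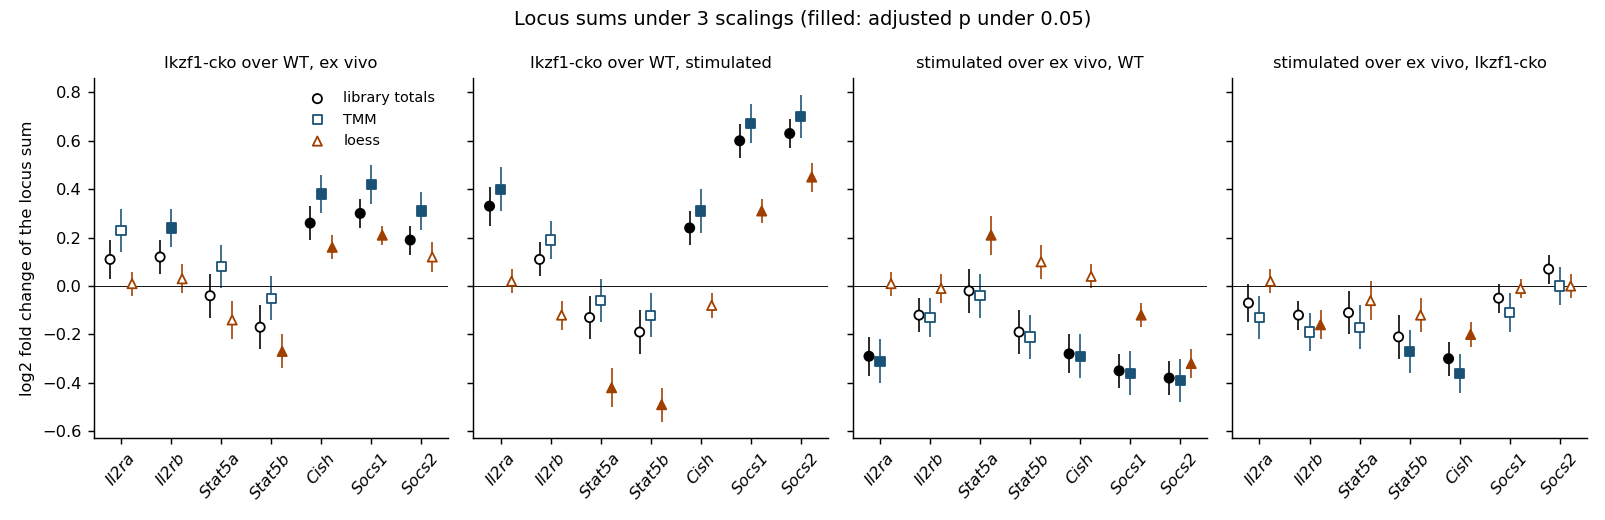
Log2 fold changes of the 7 locus sums (with SE, filled at an adjusted p under 0.05) in 4 comparisons, scaled by library totals, TMM or loess. Socs1 and Socs2 lie above 0 between stimulated genotypes with all 3 scalings, whereas Cish falls to −0.08 with loess and Stat5a moves from −0.04 to 0.08 ex vivo with TMM.

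The other genes of the IL-2 and STAT5 pathway were taken from a list of 44 genes in 4 groups. Ex vivo, 14 of the 44 loci were higher in Ikzf1-cko Treg (background 11.9%) and 1 was lower (background 11.1%), with a median log2 fold change of 0.12 against 0.00 over all loci. Without 1 library the higher loci numbered 4 (without replicate 1 of WT or replicate 2 of Ikzf1-cko), 5 (replicate 2 of WT) or 7 (replicate 1 of Ikzf1-cko), and 13 or 16 in the other fits. After stimulation 26 were higher (background 35.3%) and 1 was lower (background 27.1%), with medians of 0.22 and 0.05, and 20 to 31 were higher without 1 library. With TMM the ex vivo count became 26 and 1 (background 29.8% and 7.88%). With loess the counts were 6 and 4 ex vivo (background 7.64% and 9.08%) and 12 and 14 after stimulation (background 24.7% and 24.8%). The balance between genotypes after stimulation thus rested on the scaling.

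By role, 1 of 8 receptor and ligand genes, 6 of 11 genes for kinases, phosphatases and STATs, 2 of 5 further SOCS genes and 5 of 20 response genes were higher in Ikzf1-cko ex vivo, where 11.9% of all loci were. After stimulation 4, 8, 3 and 11 were, where 35.3% of all loci were. Il7r, the IL-7 receptor alpha chain, held 22.6 ± 3.58 FPKM in stimulated WT and 41.0 ± 2.84 in stimulated Ikzf1-cko Treg, a log2 difference of 0.87 (edgeR adjusted p = 1.9e-05). Socs5 held 30.9 ± 1.7 and 45.2 ± 1.11, a log2 difference of 0.55. Myc, a growth regulator, was higher in both states, by 0.51 ex vivo and 0.61 stimulated. Gzmb, the granzyme B gene, was the lower gene in both states, at −0.72 ex vivo (edgeR adjusted p = 0.0032) and −0.39 stimulated. The Il2 locus itself, with 2 regions, held 7.81 ± 1.96 FPKM in WT ex vivo and 8.24 ± 0.829 in Ikzf1-cko ex vivo, then 7.11 ± 1.07 and 8.69 ± 0.661 after stimulation.

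With stimulation 6 of the 44 loci rose and 21 fell in WT Treg, and 5 rose and 10 fell in Ikzf1-cko (backgrounds 32.5%, 27.4%, 21.8% and 9.57%), with medians of −0.18 and 0.02 against 0.04 and 0.07 over all loci. The effect of genotype was greater after stimulation at 7 of them (background 13.1%) and smaller at none (background 3.5%). With TMM it was greater at 1 (background 2.93%). With loess it was greater at 2 (background 5.32%) and smaller at 3 (background 3.18%). Without 1 library it was greater at 4 to 13 and smaller at 0 or 1, with 13 without replicate 2 of stimulated WT. Without replicate 2 of either Ikzf1-cko group 6 fell in Ikzf1-cko. Il4ra, the IL-4 receptor alpha chain, fell by 0.70 in WT and by 0.65 in Ikzf1-cko, and Ctla4, an inhibitory receptor of Treg, fell by 0.65 in WT. With loess 14 rose and 14 fell in WT (background 27.4% and 28.4%), and 9 and 11 in Ikzf1-cko (background 16.4% and 15.9%).

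Across the 12 libraries the levels of Socs1 and Socs2 followed each other most closely among the 7 loci, with a Pearson r of 0.94. The next were Il2rb with Cish (0.92) and Il2ra with Socs1 (0.91). Stat5a and Stat5b had an r of 0.85 but share regions, and Stat5b with Socs2 had an r of −0.27. Among all 27532 loci, those most like each member were Heca for Il2ra (0.988), Scrt1 for Il2rb (0.937), AI480526 for Stat5a (0.926), Rnf157 for Stat5b (0.963), Sdf4 for Cish (0.982), Gm10785 for Socs1 (0.991) and Gm17348 for Socs2 (0.992). All these values share the libraries, their depth and their 4 groups, and they are descriptions without a test.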

How the data were processed

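ATAC-seq was analysed for 12 Treg libraries of 4 groups with 3 replicates each, grouped by the labels. The authors aligned reads with Bowtie2, removed duplicates, called peaks per replicate with MACS2 in the ENCODE pipeline, removed blacklisted regions and merged peaks found in at least 2 replicates into 1 reference set (builds named: mm9 in the submitters' processing notes, hg19 in the methods; the regions' coordinates are mm9). The deposited table gives for each region the counts, which are not normalized, the FPKM (count scaled by region length and library total) and the log2 FPKM, of which the deposited log2 values were not used. A deposited table of the authors' own log2 fold changes, F scores, p-values and FDR for called regions was not used.

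Counts were tested with edgeR 4.0.16 in R 4.3.3: the quasi-likelihood test over all 12 libraries with 1 mean per group, scaled by library totals, over 69957 regions with at least 3.6 CPM in 3 libraries or over summed counts of 27532 gene loci (gene body extended by 20 kb, GENCODE M1), with Benjamini-Hochberg adjustment. The authors' scaling by 10 kb background bins needs reads and could not be repeated. Regions were called at an adjusted p under 0.05 and a log2 fold change over 1 in size, loci at the adjusted p alone. The errors after ± are the SE of the log2 fold change or the SD over libraries, as stated. In counts simulated for the ex vivo comparison, 200 of 200 regions and 200 of 200 loci with a log2 change of 2 were recovered, with 2 false calls among 69957 regions and 0 among 27532 loci.

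The methods call the replicates biological, but whether they came from separate mice is not stated, so p-values measure the spread between these samples. The sorted cells of a genotype were divided between the states, and the sources do not say which libraries share a sort. Regions were named from those at each start site, the strongest at each gene and those past both thresholds. The one of smallest p at each gene in each of the 4 comparisons was added. Under this rule OCR_41740 (strongest at Il2rb), OCR_13914 (Socs2), OCR_115659 (Cish) and OCR_20449 (smallest p at Stat5a ex vivo) fell too, but they are not described. OCR_60381, OCR_20451 and OCR_44015 fall outside this rule. Their names and those of the genes and lists were chosen with earlier results of these data known. Replicate numbers were not taken as pairs, since correlations of same-numbered deviations ran from −0.376 to 0.293. Alternatives were TMM, loess scaling (span 0.3), thinning to 4808916 reads, other filters and windows, limma 3.58.1 on log2 FPKM plus 1, DESeq2 1.42.0, a fit of the compared groups alone, a replicate block and leaving out each library.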

Additional observations from a re-analysis of the deposited data

Results flagged for a closer look

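At 5 items the difference between Ikzf1-cko and WT Treg was itself different after stimulation and ex vivo, by the interaction term of the edgeR model. These were the summed Socs2 locus (a log2 difference of 0.44, adjusted p = 0.0056), the summed Socs1 locus (0.29, adjusted p = 0.04), the region OCR_13913 at the Socs2 start (0.52, adjusted p = 0.0058), OCR_44014 downstream of Socs1 (0.58, adjusted p = 0.0083) and OCR_60381 upstream of Il2ra (0.95, adjusted p = 0.044). In each of them the genotype difference was the greater one after stimulation. The 3 flagged regions reached 3.6 CPM in all 12 libraries. Of all regions that did so, 14.7% passed in this direction and 1.93% in the other, beside 3 and none of 59 members. Of all loci 13.1% and 3.5% passed. The Socs2 locus, OCR_13913 and OCR_44014 passed with any 1 library left out, while the Socs1 locus did not pass in 9 and OCR_60381 in 6 of 12 such fits. With loess, of these 5 the Socs2 locus alone passed. Groups of 3 libraries were not screened for single outlying libraries.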

How the results depend on the processing

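Between genotypes ex vivo, 1 member was past both thresholds; with loess, thinning or no filter it was 2, with a filter in all 12 libraries 0, in 50 kb windows 4 and at the adjusted p alone 21. Between stimulated genotypes (2 members) it was 0 with that filter or the compared groups alone, 1 with limma, 4 with DESeq2 and 32 at the adjusted p alone. With stimulation in WT (1 member) it was 3 with loess or 50 kb windows, 0 with that filter, the compared groups alone or the gene body alone, and 32 at the adjusted p alone. In Ikzf1-cko (2 members) it was 1 with loess, that filter or the compared groups alone, 4 in 50 kb windows and 22 at the adjusted p alone. For the interaction (0 members) it was 1 with loess or limma, 2 with thinning and 3 at the adjusted p alone. Without 1 library the counts ran from 1 to 2, 1 to 3, 0 to 3, 1 to 2 and 0 to 1 in that order. Of all regions tested with the filter in all 12 libraries, 0.99%, 2.5%, 3.62% and 0.806% were past both thresholds in the 4 pairwise comparisons. With loess 2.27%, 6.74%, 7.1% and 2.15% of all tested regions were. Of the 7 loci, 3 differed between genotypes ex vivo (1 over the gene body alone, 1 to 3 without 1 library) and 4 stimulated (3 to 5). In WT 4 moved with stimulation (4 to 7) and in Ikzf1-cko 1 did (1 in each fit without 1 library; 2 with TMM, loess or the compared groups alone; 3 with DESeq2 or the gene body alone). For the interaction 2 passed, with 1 under TMM, loess, DESeq2, the gene body alone and the replicate block, and 1 to 3 without 1 library. The replicate block left 1, 2, 1, 2 and 0 members called, ended the Socs1 interaction (0.29, adjusted p = 0.053) and the rise of OCR_20450 in Ikzf1-cko (0.92, adjusted p = 0.051), and moved no other named region or locus across the threshold of the adjusted p.

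Direction turned with loess at the Il2ra locus with stimulation (0.01 in WT, 0.02 in Ikzf1-cko), at the Il2rb locus (−0.12) and start OCR_41741 (−0.05) between stimulated genotypes, at Cish between stimulated genotypes (−0.08) and with stimulation in WT (0.04), and at Stat5a (0.21) and Stat5b (0.10) with stimulation in WT. It turned with TMM at Stat5a ex vivo (0.08), with the gene body alone at Stat5a (interaction, 0.04) and at Socs1 with stimulation in Ikzf1-cko (0.08), and with DESeq2 at Socs2 with stimulation in Ikzf1-cko (−0.01). Without 1 library Stat5a ran from −0.21 to 0.02 between stimulated genotypes and from −0.17 to 0.06 both with stimulation in WT and for the interaction, and the interaction ran from −0.10 to 0.13 at Stat5b and from −0.08 to 0.08 at Cish. The causes were not tested. Thinning to 1 depth ended ex vivo genotype differences at strong regions as well, among them OCR_44016 at Socs1 (mean 55.0 FPKM, adjusted p = 0.13) and OCR_60390 (46.5 FPKM, adjusted p = 0.18), and OCR_20450 rested on 5 to 45 reads per library.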
